A study of Mus musculus with 8 samples.

Results

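The subject here is the division of transcripts between epithelium and stroma in the uterus of mice that lack Ezh2 in Cre-expressing cells. Its members are all genes of the authors' deposited comparison of epithelium with stroma within the Ezh2-deleted uteri, 2744 of the 5828 genes that the series lists in any of its 4 tables. The same comparison in wild-type uteri lists 1769 genes and is set beside it below. Of the 2744 genes, 271 (9.88%) were called, meaning that the authors' adjusted p was under 0.05. Of these, 149 (5.43% of the listed genes) were higher in epithelium and 122 (4.45%) were higher in stroma.

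The uterine lining is a simple epithelium, luminal and glandular, joined by tight junctions and specialised for secretion and ion transport. It rests on an endometrial stroma of fibroblast-like cells that lay down collagen and proteoglycan matrix and hold the blood vessels and immune cells. Ezh2 is the catalytic subunit of Polycomb repressive complex 2. It methylates histone H3 to give the H3K27me3 mark, which keeps genes of other lineages and stages silent.

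The deleted animals (KO below) had the genotype EZ fl/fl; Prcre/+, in which both Ezh2 alleles are floxed and Cre is expressed from the progesterone receptor locus, on a mixed C57BL/6 and 129SvEv background. Their controls (WT below) were EZ fl/fl littermates without Cre on the same background, so both groups carried the floxed alleles. All were females ovariectomized at postnatal day 71 ± 4, and uteri were taken at day 112 ± 11, so every uterus had gone without ovarian hormones for weeks. There were 4 uteri per genotype, 1 animal of each genotype from each litter. Cre acts only where the progesterone receptor locus has been active, and Ezh2 itself was not analysed here, so the deletion was not checked at its own transcript.

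Sections 10 µm thick were read with Visium, an array of barcoded spots that captures messenger RNA in place. Each spot covers tissue wider than a single cell, so a spot named epithelium can include stroma and the reverse. The deposited values pool all 4 animals, which leaves 1 value per gene and compartment and no spread between animals. The pooled counts of unique molecules (UMIs) could be recovered from the deposited averages. They came to 1313787 in KO epithelium and 947266 in KO stroma over the listed genes, with a median of 180 and 136 UMIs per gene, and to 1061353 and 416097 in the WT compartments. Folds below are ratios of these UMIs after division by the compartment's size factor sum, 122.156 for KO epithelium and 89.2145 for KO stroma. The ranges in parentheses are exact 95% Clopper-Pearson intervals that cover counting error only. In such pools, fewer cells of a type and less RNA per cell cannot be told apart.

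Most listed transcripts were spread almost evenly over the compartments. Of the 2744 genes, 1557 (56.7%) lay within 1.25-fold and 2519 (91.8%) within 2-fold, with a median log2 ratio of epithelium over stroma of -0.01 and quartiles of -0.30 and 0.25. A 4-fold difference or more was reached by 8 genes in each direction. At 2-fold or more stood 128 genes on the epithelial side (4.66%) and 97 on the stromal side (3.53%), and 216 of these were called and 9 were not. The smallest fold among called genes was 1.70. The median fold was 2.48 among genes called higher in epithelium and 2.19 among those called higher in stroma.

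By UMIs, the called genes were a small part of each compartment. The 149 epithelial genes held 7.65% of UMIs in epithelium and 3.58% in stroma, and the 122 stromal genes held 5.22% in stroma and 2.19% in epithelium. Of the 100 genes with most UMIs in each compartment, 93 were the same genes. A gene is listed only where its average is above 1 in at least 1 compartment. By that rule 2019 genes were above 1 in both, 324 in epithelium alone and 401 in stroma alone, and a gene of low level enters the table more readily when it is high on 1 side.

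**Figure D1:**
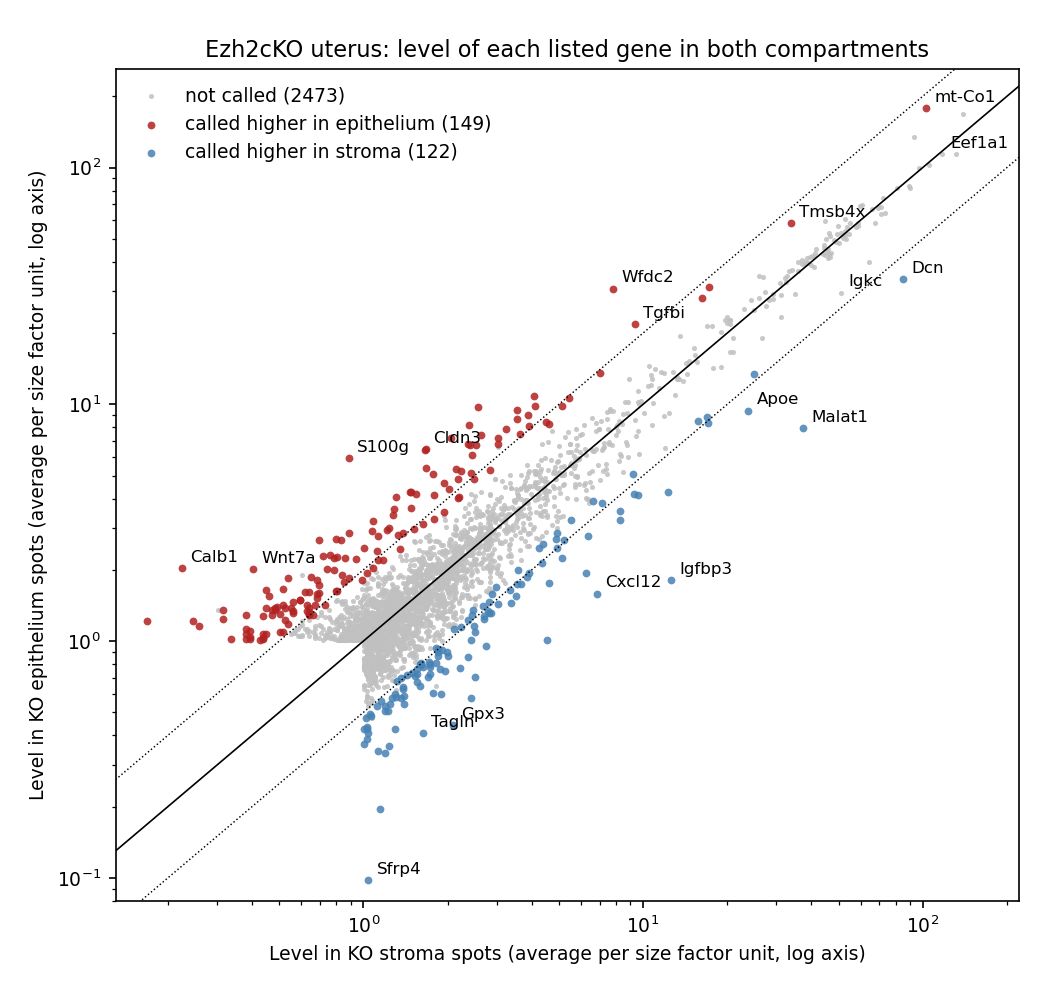
Level of each of the 2744 listed genes in KO stroma (horizontal) and KO epithelium (vertical), as the pooled average per unit of size factor on log axes. The solid line marks equal levels and the dotted lines 2-fold; the 149 genes called higher in epithelium lie above and the 122 called higher in stroma lie below, and the other 2473 follow the line of equality.

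The genes that define a simple epithelium marked the compartment as labelled. All 25 listed members of a 33-gene list of simple uterine epithelium were called higher in epithelium, with a median log2 ratio of 1.49. Their summed UMIs made up 1.28% of epithelium and 0.464% of stroma, a summed fold of 2.80. The 15 members above 1 in both compartments, which the listing rule did not favour, had a median log2 ratio of 1.31. If any of these genes guided the naming of spots, their difference is no finding.

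Among the keratins, which form the intermediate filaments of epithelial cells, Krt19 had 1002 UMIs in epithelium and 213 in stroma, a fold of 3.44 (2.96 to 4.00). Krt8, the keratin that pairs with Krt18, had 907 and 235 UMIs (2.82-fold, 2.44 to 3.27). Krt18 had 824 and 226 (2.66-fold), and Krt7 had 190 and 41 (3.38-fold). Stroma spots thus held UMIs of all 4 keratins, and all were called higher in epithelium.

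The junction list had 16 listed members, 8 of them called, all higher in epithelium. Cldn3, a sealing claudin, had 786 UMIs in epithelium and 148 in stroma (3.88-fold, 3.25 to 4.66). Cldn7 stood at 2.95-fold (392 and 97 UMIs) and Cldn10, a claudin that forms ion-selective pores, at 2.88-fold (833 and 211). Cdh1, which encodes E-cadherin, the adhesion molecule of adherens junctions, was 2.43-fold higher (360 and 108 UMIs). Perp, a membrane protein of desmosomes, stood at 3.22-fold (203 and 46), and Dsp, the desmosomal linker desmoplakin, at 2.09-fold (217 and 76). Among the members that were not called, Ctnnb1, beta-catenin, had 1011 UMIs in epithelium and 752 in stroma (1.02-fold toward stroma, 0.926 to 1.12), and Tjp1, the scaffold ZO-1, had 194 and 160 (1.13-fold toward stroma, 0.910 to 1.40).

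Of 11 listed epithelial transcription and splicing regulators, 10 had the higher value in epithelium and 8 were called there, with a median log2 ratio of 1.21. Tfcp2l1, a grainyhead-related factor, led them at 3.18-fold (279 and 64 UMIs, 2.42 to 4.25). Klf5 stood at 2.82-fold and the Ets factors Elf3 and Ehf at 2.50-fold and 2.31-fold. Msx1, a homeobox factor of the uterine epithelium, had 1201 UMIs in epithelium and 366 in stroma (2.40-fold, 2.13 to 2.70). Sox17, which is needed for uterine glands and is also made by endothelium, had 594 and 195 (2.22-fold). Dlx5, a distal-less homeobox factor, was 2.27-fold higher (233 and 75 UMIs). Its neighbour Dlx6 had 128 and 53 UMIs (1.76-fold) and was not called. The 8 called members had folds between 2.22 and 3.18.

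Calcium-binding genes were among the largest folds on the epithelial side. Calb1, the calcium buffer calbindin-D28k, had 248 UMIs in epithelium and 20 in stroma, a fold of 9.06 (5.74 to 15.1), the largest in that direction. S100g, calbindin-D9k, had 726 and 79 UMIs (6.71-fold, 5.32 to 8.58). The authors' deposited table gives an adjusted p of 5.19e-08 for Calb1 and 6.8e-10 for S100g. Calb1 lies on chromosome 4 (15881264 to 15908064, plus strand) and S100g on chromosome X (162961992 to 162964599, minus strand), in GRCm38 coordinates. Both encode proteins.

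Fxyd4 and Fxyd3, small regulators of the sodium pump, stood at 3.87-fold (794 and 150 UMIs) and 2.44-fold (963 and 288). Car2, a carbonic anhydrase, was 2.50-fold higher in epithelium (747 and 218 UMIs). Slc14a1, a urea transporter, was 3.84-fold higher (326 and 62). Aqp1, the water channel of vessel walls, went the other way, with 41 UMIs in epithelium and 107 in stroma (3.57-fold, 2.47 to 5.26). Of 12 listed ion and water transport genes, 6 were called higher in epithelium and Aqp1 alone was called higher in stroma.

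Of 7 listed secreted defence and mucosal proteins, 3 were called, all higher in epithelium, beside 9.88% called over all listed genes. The 3 members with the higher value in stroma were not called, at log2 ratios of -0.90 (Clu), -0.64 (Bpifb5) and -0.009 (Wfdc15b). Secreted products of the epithelium were led by Wfdc2, a whey acidic protein-type protease inhibitor. Wfdc2 had 3767 UMIs in epithelium and 697 in stroma (3.95-fold, 3.64 to 4.29). C3, the central complement component, was 2.30-fold higher (504 and 160 UMIs), and Lgals3, a galactose-binding lectin, was 2.34-fold higher (125 and 39). Cxcl17, a mucosal chemokine, had 149 and 22 UMIs (4.95-fold, 3.15 to 8.13). Ltf, lactoferrin, had 232 and 54 UMIs (3.14-fold, 2.32 to 4.30) and Clca1, a secreted regulator of chloride channels, had 809 and 270 (2.19-fold, 1.90 to 2.52), yet neither was called. The authors' deposited table gives an adjusted p of 0.108 for Ltf and 0.0860 for Clca1. Both are known estrogen-responsive genes of the uterus. Of 12 listed genes that textbook work places under estrogen, 2 were called higher in epithelium (Wnt7a and C3) and 1 in stroma (Igf1), with a median log2 ratio of 0.46.

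Metal-binding and glutathione genes divided in both directions. Gsto1, an omega-class glutathione transferase, was 3.79-fold higher in epithelium (1187 and 229 UMIs), and Gsta4 was 2.44-fold higher (338 and 101). The metallothioneins, small cysteine-rich proteins that bind zinc and copper, were both higher in epithelium. Mt2 had 656 UMIs in epithelium and 149 in stroma (3.22-fold, 2.69 to 3.87) and Mt1 had 1162 and 315 (2.69-fold, 2.38 to 3.06). On the stromal side, Gpx3, the secreted glutathione peroxidase, had 54 and 186 UMIs (4.72-fold, 3.47 to 6.51). Gstt1 was 2.26-fold higher in stroma and Selenop, the plasma selenium carrier, 1.82-fold. Of 28 listed members, 21 were not called, 4 were called in epithelium and 3 in stroma, beside 9.88% called over all listed genes.

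The promoters of the metallothionein pair are shown because these neighbours, 5.51 kb apart on chromosome 8, were called together. Each run is the 250 bases before the start site, read on the plus strand of GRCm38.p6 from RefSeq, at chr8:94178839-94179088 for Mt1 and chr8:94172368-94172617 for Mt2. The capitals mark the metal response element core, TGCGCNC or TGCACNC, on either strand.
Mt1: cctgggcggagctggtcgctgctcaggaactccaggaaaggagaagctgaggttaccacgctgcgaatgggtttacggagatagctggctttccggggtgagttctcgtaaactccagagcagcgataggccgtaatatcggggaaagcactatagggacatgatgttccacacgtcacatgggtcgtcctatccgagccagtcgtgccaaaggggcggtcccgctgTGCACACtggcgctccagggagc
Mt2: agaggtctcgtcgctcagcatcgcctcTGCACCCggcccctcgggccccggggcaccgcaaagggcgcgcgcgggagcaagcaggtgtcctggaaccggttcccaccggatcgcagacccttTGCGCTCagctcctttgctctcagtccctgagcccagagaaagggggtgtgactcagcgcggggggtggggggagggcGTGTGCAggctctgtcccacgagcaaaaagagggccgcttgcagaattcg
Mt1 held 1 match, with its first base at -23 from the start site, and Mt2 held 3, at -223, -128 and -50. Each window ends at the annotated start used here. Bases beyond it were not searched, so these are not counts of all such elements near either gene. Of all 32851 promoter windows of that length 21.4% held a match, and of the 2841 windows of listed genes 30.9%. Among windows of the called genes the share was 24% on the epithelial and 25% on the stromal side, below that of the listed genes they are drawn from. A match describes the letters of the window and is no evidence of binding.

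Enzymes of epithelial metabolism followed. Cndp2, a cytosolic dipeptidase, was 3.50-fold higher in epithelium (881 and 184 UMIs). Enpp3, a membrane nucleotide pyrophosphatase, was 3.39-fold higher (330 and 71), and Anpep, the brush-border aminopeptidase N, was 1.97-fold higher (1305 and 484). Scd2, a fatty acid desaturase, stood at 1.92-fold (1650 and 628) and Ldhb, a lactate dehydrogenase subunit, at 1.84-fold (494 and 196). Slc25a48, a mitochondrial carrier, was 3.24-fold higher (351 and 79). Among 22 listed lipid, glucose and amino acid genes 5 were called, 4 of them epithelial, with Apoe on the stromal side.

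**Figure D2:**
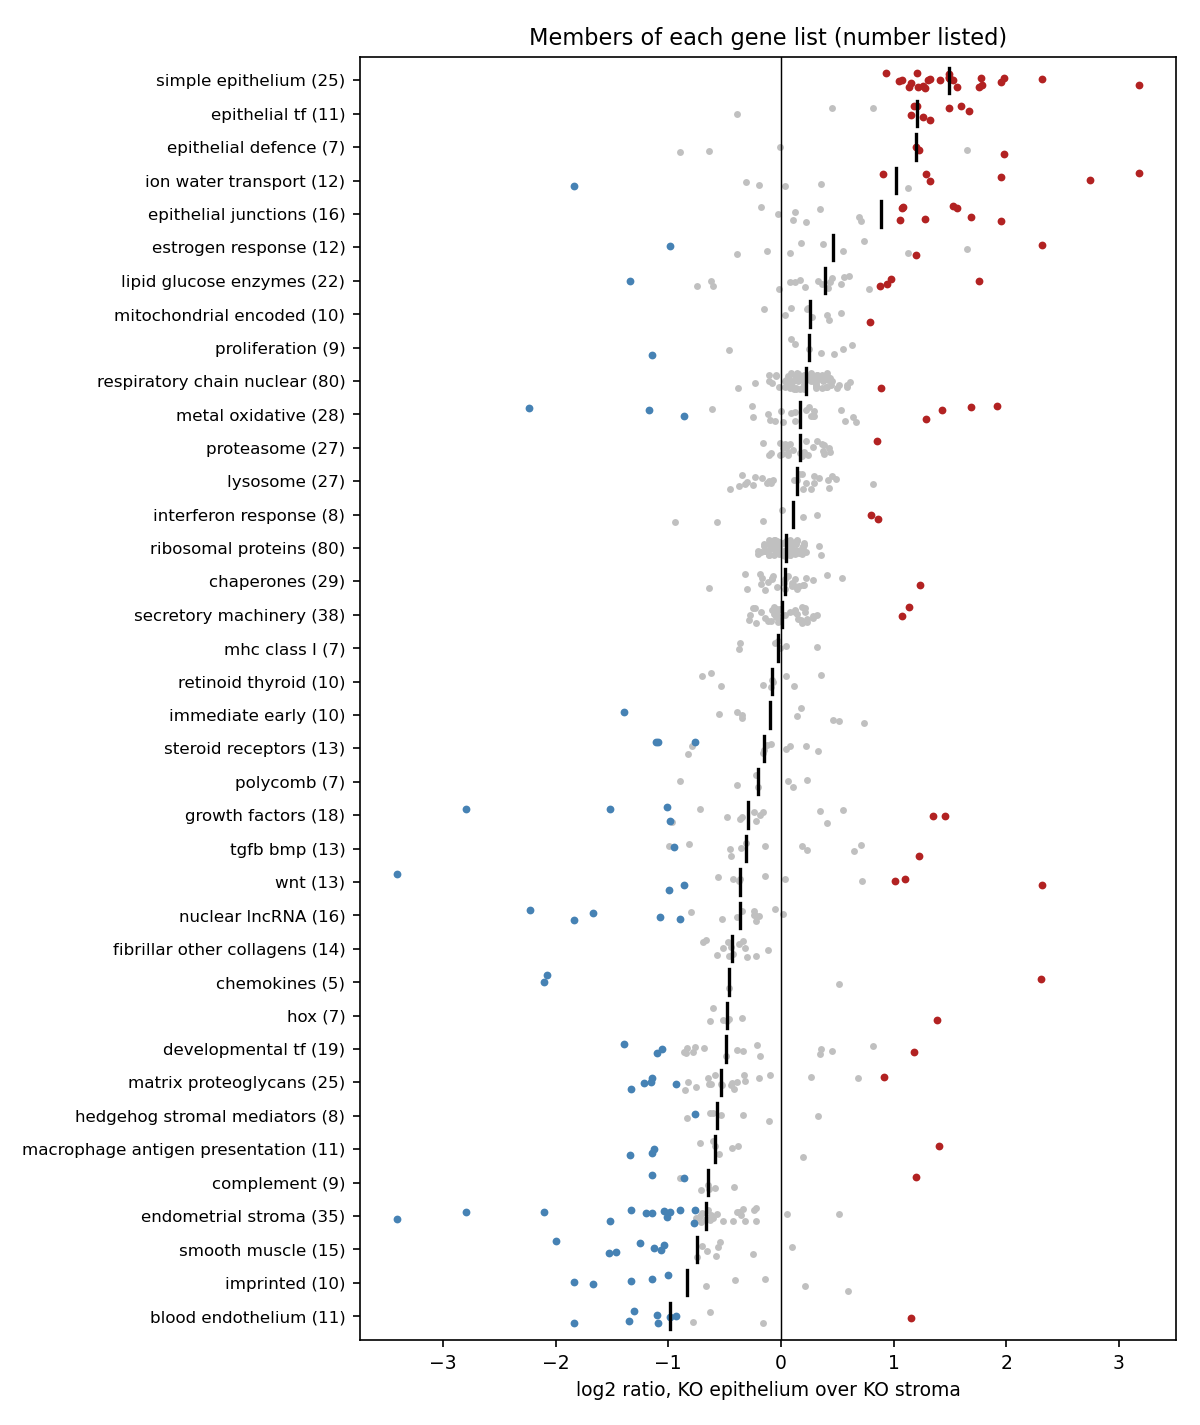
Log2 ratio of KO epithelium over KO stroma for every listed member of the gene lists with at least 5 listed members, ordered by median (black bar). Red and blue points were called higher in epithelium and in stroma, grey points were not called; points are spread vertically at random within a row, lists share some genes, and medians run from 1.49 for simple epithelium to -0.99 for blood endothelium.

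The stromal list showed a shallower division. Of 35 listed endometrial stroma and fibroblast genes, 13 were called higher in stroma and 0 in epithelium, and 33 had the higher value in stroma. Their median log2 ratio was -0.66, and their summed UMIs made up 2.73% of stroma and 1.51% of epithelium. Epithelium spots therefore still held 523 UMIs of Igfbp5 and 4142 of Dcn. Beside this, every listed marker of simple epithelium was present in stroma spots, so each compartment carried markers of the other. How far this sets the folds was not tested.

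Sfrp4, a secreted Wnt antagonist, had 12 UMIs in epithelium and 93 in stroma (10.6-fold, 5.79 to 21.3), the largest fold of the table, with the fewest UMIs of any sum in it. Igfbp3, a carrier of insulin-like growth factors, had 221 and 1124 UMIs (6.96-fold, 6.02 to 8.08). Cxcl12, the stromal ligand of the receptor CXCR4, had 194 and 609 UMIs (4.30-fold, 3.65 to 5.08). The authors' deposited table gives an adjusted p of 1.04e-07 for Sfrp4, 4.29e-11 for Igfbp3 and 5.19e-08 for Cxcl12. Sfrp4 lies on chromosome 13 (19623104 to 19632994, plus strand), Igfbp3 on chromosome 11 (7206086 to 7213923, minus strand) and Cxcl12 on chromosome 6 (117168535 to 117181367, plus strand).

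Lower folds were measured for the general fibroblast genes. Igfbp5 was 2.86-fold higher in stroma (523 and 1093 UMIs) and Dcn, the collagen-binding proteoglycan decorin, 2.51-fold (4142 and 7593 UMIs, 2.42 to 2.61). Dpt, dermatopontin, stood at 2.29-fold and Gsn, the actin-severing protein gelsolin, at 2.06-fold. Pdgfra, the receptor that marks fibroblasts, had 236 and 348 UMIs (2.02-fold, 1.71 to 2.39), and Vim, the mesenchymal filament vimentin, had 468 and 637 (1.86-fold, 1.65 to 2.10). Nr2f2, a nuclear receptor of the endometrial stroma, was 1.70-fold higher (478 and 592 UMIs). The exceptions in direction were Thy1, a surface glycoprotein, at 1.04-fold toward epithelium, and Cxcl14, a chemokine, with 1559 UMIs in epithelium and 794 in stroma (1.43-fold, 1.32 to 1.56). Neither was called.

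Collagens lay on the stromal side without a single call, though so few genes cannot be set apart from the 9.88% called over all listed genes. All 14 listed chains had the higher value in stroma, with log2 ratios between -0.69 (Col5a1) and -0.12 (Col18a1) and a median of -0.43. Col1a1 had 706 and 734 UMIs (1.42-fold, 1.28 to 1.58) and Col3a1, the other main fibrillar chain, had 1124 and 1104 UMIs (1.34-fold, 1.24 to 1.46). The authors' deposited table gives an adjusted p of 0.360 for Col1a1 and 0.530 for Col3a1. Over the 14 chains, collagen UMIs were 0.642% of stroma and 0.486% of epithelium. Collagen messages were thus divided far less than Dcn or Igfbp3.

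Of 25 listed proteoglycan, elastic fibre and matricellular genes, 5 were called higher in stroma and 1 in epithelium, beside 9.88% called over all listed genes. The stromal ones included Matn2, a filament-forming matrix protein, at 2.32-fold (177 and 300 UMIs), and Ltbp4, which holds latent TGF-beta in elastic fibres, at 2.22-fold (511 and 828). Fbln2, a fibulin, stood at 2.21-fold and Sparcl1, a collagen-binding matricellular protein, at 1.90-fold. The epithelial one was Lama5, the laminin chain of epithelial basement membranes, with 250 and 97 UMIs (1.88-fold, 1.48 to 2.40). Mgp, matrix Gla protein, was not called and stood close to even at 1.07-fold toward stroma (1640 and 1278 UMIs).

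Smooth muscle genes were on the stromal side, with 7 of 15 listed members called, beside 9.88% called over all listed genes. Their median log2 ratio was -0.75. The 7 members above 1 in both compartments, which the listing rule did not favour, had a median of -0.58. Among the called members only Mylk was one of these, and the others were above 1 in stroma alone. Tagln, the actin cross-linker SM22, had 50 UMIs in epithelium and 146 in stroma (4.00-fold, 2.88 to 5.63). Acta2, smooth muscle actin, had 116 and 244 (2.88-fold, 2.30 to 3.62), and Myl9, the regulatory myosin light chain, had 105 and 212 (2.76-fold, 2.18 to 3.53). Cav1, which forms caveolae, stood at 2.38-fold, Synpo2 at 2.18-fold, Tpm2, a tropomyosin, at 2.09-fold and Mylk, the myosin light chain kinase, at 2.05-fold. Des, desmin, had 331 and 380 UMIs (1.57-fold, 1.35 to 1.83), and Cald1, caldesmon, had 159 and 189 (1.63-fold, 1.31 to 2.02), and neither was called. Smooth muscle UMIs were 0.375% of stroma and 0.221% of epithelium. Which vessel or muscle layer they came from was not tested.

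The promoters of Acta2 and Myl9 are shown because both genes are classic targets of serum response factor, which binds the CArG box, and were called together. Acta2 is at chr19:34255374-34255623, read on the minus strand, and Myl9 at chr2:156775214-156775463, on the plus strand, both GRCm38.p6 from RefSeq. The capitals mark each 10-base stretch that differs from the CArG consensus by at most 1 base, on either strand.
Acta2: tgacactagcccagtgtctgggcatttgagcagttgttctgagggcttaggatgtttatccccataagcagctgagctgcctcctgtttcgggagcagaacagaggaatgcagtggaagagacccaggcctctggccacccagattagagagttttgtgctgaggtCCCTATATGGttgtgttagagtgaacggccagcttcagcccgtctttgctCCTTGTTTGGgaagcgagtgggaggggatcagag
Myl9: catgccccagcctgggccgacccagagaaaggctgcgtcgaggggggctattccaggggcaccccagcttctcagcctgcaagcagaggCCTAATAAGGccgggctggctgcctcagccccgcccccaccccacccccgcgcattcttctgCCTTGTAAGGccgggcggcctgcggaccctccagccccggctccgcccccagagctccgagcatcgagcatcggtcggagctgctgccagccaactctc
Acta2 held matches with first bases at -84 and -34 from the start site, and Myl9 at -161 and -99, of which the one at -161 is a full CArG box. Of all 32851 windows, 8.59% held at least 1 such stretch and 0.670% held 2 or more, and of the windows of listed genes 8.24% held at least 1. Among windows of called genes the share with at least 1 was 12.5% on the stromal side and 5.79% on the epithelial side. For the full CArG box the order was reversed, with 1.56% on the stromal and 3.31% on the epithelial side. These shares are 2 and 4 windows, and 1.34% of the windows of listed genes held a full box. The windows of Mylk, Cav1, Tpm2 and Synpo2 held no match, which says only that these letters are not in that window.

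Vessel genes were likewise stromal. Of 11 listed endothelial genes, 7 were called higher in stroma, beside 9.88% called over all listed genes. Among them were Cldn5, the endothelial claudin, at 2.47-fold (93 and 168 UMIs) and Emcn, endomucin, at 2.55-fold (50 and 93). Cd34, a surface sialomucin, stood at 1.98-fold (303 and 439). Cldn5, Emcn and Aqp1 were above 1 in stroma alone, a position the listing rule favours. The 6 members above 1 in both compartments had a median log2 ratio of -0.86. The member called on the epithelial side was Sox17, which the epithelium also makes. Ccl21a, a chemokine of lymphatic vessels, had 70 and 216 UMIs (4.23-fold, 3.21 to 5.61), and Rgs5, a pericyte marker, had 179 and 251 (1.92-fold).

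Of 11 listed macrophage and antigen-presentation genes, 3 were called higher in stroma and 1 in epithelium, beside 9.88% called over all listed genes. Among the called genes, C1qa and Cd14 were above 1 in 1 compartment alone, which the listing rule favours. Apoe, the lipid carrier that macrophages and fibroblasts make, had 1149 and 2120 UMIs (2.53-fold, 2.35 to 2.72), C1qa, a complement subunit of macrophages, stood at 2.20-fold and Lyz2, a lysozyme of myeloid cells, at 2.18-fold. Cd14, the lipopolysaccharide co-receptor, had 127 UMIs in epithelium and 35 in stroma (2.65-fold) and was called in the other direction. The class II genes H2-Aa, H2-Ab1, H2-Eb1 and Cd74 stood at 1.35-fold to 1.65-fold toward stroma and were not called.

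Plasma cell transcripts were abundant on both sides. Igha, the IgA heavy chain, had 4854 UMIs in epithelium and 5730 in stroma (1.62-fold, 1.56 to 1.68) and Igkc, the kappa light chain, had 3619 and 4535 (1.72-fold, 1.64 to 1.79). Neither was called, although the counting intervals are narrow. The authors' deposited table gives an adjusted p of 0.697 for Igha and 0.675 for Igkc. Markers of plasma and B cells held 1.22% of stromal and 0.726% of epithelial UMIs. None of 22 markers of T cells, NK cells, mast cells and neutrophils was listed. The hemoglobin genes Hbb-bs and Hba-a1 had 79 and 162, and 59 and 91 UMIs, at 2.81-fold and 2.11-fold toward stroma without a call.

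Class I genes were level. The 7 listed members had a median log2 ratio of -0.02 and no call, with H2-K1 at 1.01-fold (1592 and 1180 UMIs) and B2m, the class I light chain, at 1.04-fold toward stroma (1569 and 1189). Of 8 listed interferon-induced genes, Ifitm3 and Ifitm1, membrane proteins that block viral entry, were called higher in epithelium at 1.81-fold (3813 and 1536 UMIs) and 1.74-fold (3437 and 1445). The nearby Ifitm2 stood at 1.01-fold. Reads of such close copies, and of the H2 genes, can be shared in counting, so their single values are uncertain.

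In the Wnt list 13 genes were listed, and 3 were called in each direction. Wnt7a, the ligand of the uterine epithelium, had 246 and 36 UMIs (4.99-fold, 3.51 to 7.29), and the receptors Fzd10 and Fzd6 were higher in epithelium at 2.15-fold and 2.02-fold. The secreted antagonists Sfrp4 and Sfrp2 and the Dickkopf relative Dkk3 were higher in stroma at 10.6-fold, 1.81-fold and 1.99-fold. Wnt5a, a ligand of the stroma, had 252 and 203 UMIs and a log2 ratio of -0.14, and Axin2, a Wnt target, had 146 and 143 and -0.42, both without a call.

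In the insulin-like growth factor system, the ligand Igf1 had 98 UMIs in epithelium and 142 in stroma (1.98-fold, 1.52 to 2.59) and was called higher in stroma with Igfbp3 and Igfbp5. The receptor gene Igf1r, with 287 and 238 UMIs, had a log2 ratio of -0.18. The binding proteins Igfbp6, Igfbp7 and Igfbp4 stood at log2 ratios of -0.72, -0.48 and -0.34 without a call. Among receptor tyrosine kinases, Fgfr2, which receives stromal fibroblast growth factors, was 2.56-fold higher in epithelium (245 and 70 UMIs), and Erbb2, the co-receptor of the EGF family, 2.75-fold (173 and 46). Ddr1, a collagen receptor of epithelia, stood at a log2 ratio of 0.82 (239 and 99 UMIs) without a call. In the TGF-beta list, Tgfbi, a secreted adhesion protein, was 2.34-fold higher in epithelium (2662 and 832 UMIs) and the receptor Tgfbr2 was 1.94-fold higher in stroma (150 and 212), with 11 of 13 members not called.

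Of 64 ligand and receptor pairs that were looked up, 14 had both partners listed. Wnt7a with Fzd6 and Wnt7a with Fzd10 were the pairs with both partners called, and all of these genes were epithelial. Apoe was called in stroma (log2 ratio -1.34), and its receptor Lrp1 stood at -0.59 without a call. Lama5 was called in epithelium at 0.91, and its receptor Dag1, dystroglycan, stood at 0.22 without a call. Pdgfc stood at 0.35 without a call while its receptor Pdgfra was called in stroma at -1.01. Mdk, midkine, stood at -0.36 without a call while Sdc4, a syndecan that binds it, was called in epithelium at 1.48.

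The genes of both main ovarian steroid receptors stood close to even. Pgr, the progesterone receptor and locus of the Cre, had 240 UMIs in epithelium and 166 in stroma (1.06-fold toward epithelium, 0.863 to 1.29). Esr1, the main uterine estrogen receptor, had 847 and 672 (1.09-fold toward stroma, 0.980 to 1.20). Neither was called. Nr3c1, the glucocorticoid receptor, had 106 and 165 UMIs and was 2.13-fold higher in stroma (1.66 to 2.75). The co-chaperone Fkbp4 and the retinoid receptor Rxra were not called.

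Developmental regulators are often Polycomb targets in other tissues. Of 19 listed genes 4 were called, beside 9.88% over all listed genes. All 4 were above 1 in 1 compartment alone, a position the listing rule favours, so this share is no finding. Dlx5 was called higher in epithelium, and Klf2, Prrx1 and Zeb2, a mesenchymal repressor, were called higher in stroma at 2.63-fold, 2.14-fold and 2.07-fold. Of 7 listed Hox genes, Hoxb6 alone was called, with 179 UMIs in epithelium and 50 in stroma (2.61-fold, 1.90 to 3.65). The other 6 had log2 ratios between -0.63 and -0.35. Hoxa10 had 354 and 401 UMIs and Hoxa11 had 177 and 196, both key to uterine identity and neither called. Of 7 listed Polycomb-related genes, none was called, a list too small to set apart from the 9.88% over all listed genes. Ezh1, the paralogous methyltransferase, had 118 and 99 UMIs and a log2 ratio of -0.20.

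Long noncoding RNAs lay toward stroma. Malat1, a nuclear RNA of speckles, had 973 UMIs in epithelium and 3327 in stroma (4.68-fold, 4.36 to 5.03). Kcnq1ot1 and Meg3, imprinted noncoding RNAs, stood at 3.57-fold (86 and 224 UMIs) and 3.17-fold (73 and 169). Of 16 listed members, 5 were called higher in stroma and 0 in epithelium, beside 9.88% called over all listed genes. The group held 0.999% of stromal and 0.520% of epithelial UMIs. The other called members were Xist, the X inactivation RNA, and Gm42418, a gene model that overlaps ribosomal RNA and is uncertain for that reason. The list also held Lars2, which encodes a protein. Neat1, another nuclear RNA, had 313 and 299 UMIs and a log2 ratio of -0.39 without a call, and Gas5 stood at -0.05. Bc1, a small cytoplasmic RNA best known from neurons, was 3.23-fold higher in stroma (236 and 557 UMIs). Of 10 listed imprinted genes, 5 were called in stroma, beside 9.88% called over all listed genes. Besides both noncoding RNAs and Dcn, these were Cdkn1c, a cell cycle inhibitor, at 2.22-fold (110 and 178 UMIs) and Ube3a, a ubiquitin ligase imprinted in neurons, at 2.00-fold (113 and 165). All of them but Dcn were above 1 in stroma alone, a position the listing rule favours, so this share is no finding. The called stromal genes spanned a median of 32.9 kb of the genome and the called epithelial genes 21.4 kb, against 18.2 kb over all listed genes.

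Other stromal genes with large folds and ample UMIs were Inmt, an indolethylamine methyltransferase, at 4.47-fold (124 and 405 UMIs), Klf9, a zinc finger factor that partners the progesterone receptor, at 2.64-fold (214 and 413), Zbtb20 at 2.57-fold (395 and 741), Gas1, a hedgehog co-receptor, at 2.39-fold (124 and 216) and Sned1 at 2.34-fold (433 and 740). On the epithelial side stood Dbndd2 at 3.24-fold (328 and 74) and Emb, embigin, a chaperone of monocarboxylate transporters, at 3.10-fold (496 and 117). Klf9 and Klf5 are members of 1 family that lay on opposite sides.

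Housekeeping transcripts set the even background. The 80 listed ribosomal protein genes took 34.8% of epithelial and 34.9% of stromal UMIs, with log2 ratios between -0.20 and 0.36 and no call. Messages encoded in the mitochondrial genome took 6.32% of epithelial and 4.76% of stromal UMIs. Of these 10, mt-Co1, a cytochrome oxidase subunit, was called, with 21777 and 9203 UMIs (1.73-fold, 1.69 to 1.77). The authors' deposited table gives an adjusted p of 0.0399 for mt-Co1. mt-Co2, from the same complex, had 6597 and 4688 UMIs and a log2 ratio of 0.04. Nuclear genes of the respiratory chain had a median log2 ratio of 0.23 over 80 members, 72 of them with the higher value in epithelium and 1 called. Tmsb4x, which binds actin monomers, was higher in epithelium at 1.72-fold (7092 and 3006 UMIs). Lysosomal genes (27 listed) had no call, and 1 of 29 chaperones was called, Hspb1 at 2.35-fold in epithelium (641 and 199 UMIs).

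**Figure D3:**
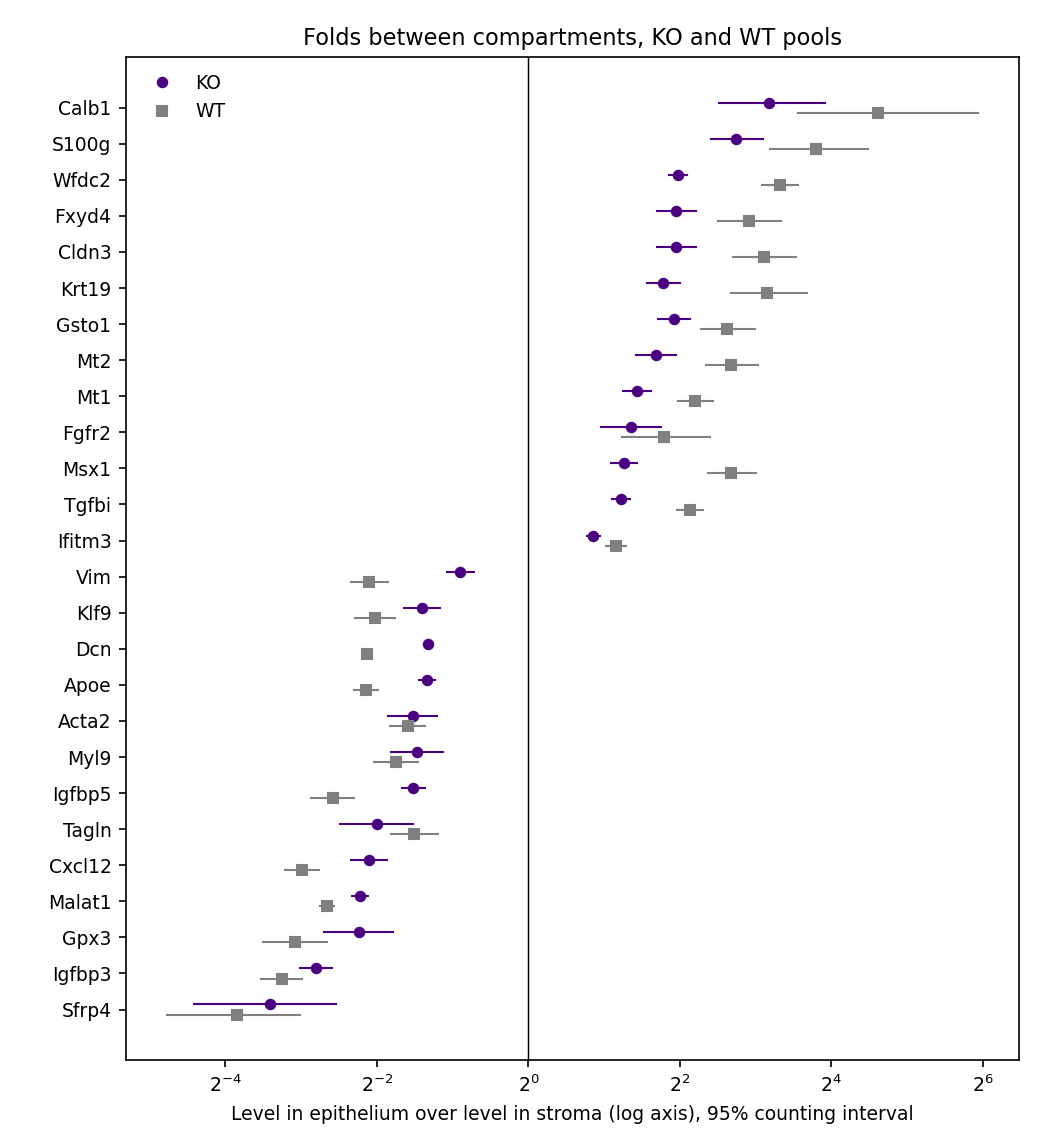
Fold of epithelium over stroma with its 95% counting interval (log axis, equal levels at 1) for 26 genes described in the text, in the KO pools (circles) and the WT pools (squares). Most circles lie nearer to 1 than the squares, though some of the genes were named for that difference, while Tagln lies farther from 1 in KO (4.00-fold toward stroma) than in WT (2.84-fold).

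The same contrast in WT uteri put these values in context. KO and WT share no animals, each genotype is 1 pool, and the difference between their contrasts was not tested. The WT table lists 1769 genes with 509 calls (28.8%), of which 231 lay in epithelium (13.1%) and 278 in stroma (15.7%), from fewer UMIs than in KO. Of the 1737 genes in both tables, 208 were called in both, which is 98.6% of the 211 called in KO and 42.8% of the 486 called in WT. The middle 50% of these 1737 genes spanned 0.55 in log2 ratio in KO and 0.90 in WT. Over the 229 genes called higher in epithelium in WT, the median log2 ratio was 0.82 in KO and 1.49 in WT. Over the 257 called higher in stroma it was -0.74 and -1.24. Choosing genes by their call in WT favours large WT ratios, so part of this gap is set by the choice.

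The compartment genes described above had these values side by side. The 20 simple epithelium genes in both tables had a median log2 ratio of 1.36 in KO and 2.68 in WT. Their summed levels in epithelium and stroma were 130.5 and 47.0 in KO, and 95.3 and 15.5 in WT. The 80 ribosomal protein genes also had lower summed levels in WT, at 2270 and 2162 against 3745 and 3710 in KO. Levels per size factor unit are therefore not compared between the genotypes. Calb1 stood at 9.06-fold in KO and 24.5-fold in WT. For 31 stromal genes the medians were -0.66 and -1.10. Dcn was at 2.51-fold in KO and 4.37-fold in WT, Vim at 1.86-fold and 4.28-fold, and Igfbp3 at 6.96-fold and 9.52-fold. For 13 smooth muscle genes the medians were -0.70 and -1.47, with Cald1 at 1.63-fold and 4.14-fold. Plasma cell genes were uncalled in KO but called in WT for Igha (3.98-fold), Igkc (3.74-fold) and Jchain, the joining chain (5.91-fold in WT, 1.83-fold in KO). B2m stood at 1.04-fold in KO and 1.77-fold in WT, both toward stroma. Hbb-bs stood at 2.81-fold in KO and 11.8-fold in WT. Dcn, Vim and Cald1 were among the genes named for the largest differences between genotypes, and Igha, Igkc and B2m among those named for a call in WT alone. Jchain and Hbb-bs were chosen after their values were seen. The order of these single genes is therefore no support for a smaller contrast in KO. The listing rule favours large ratios more where levels are low, so it bears on the list medians too. How far it sets them was not tested.

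The reverse order was rare among genes called in both genotypes. Choosing genes called in WT favours large WT ratios, so part of this rarity is set by the choice. A larger fold in KO was seen in 3 of 109 on the epithelial side, Hspb1 (2.35-fold in KO, 2.12-fold in WT), Tmsb4x and Slc25a5. On the stromal side it was seen in 5 of 99, Tagln, Aox3, Tm4sf1, Zcchc24 and Arap1. Tagln had 50 and 146 UMIs in KO (4.00-fold, 2.88 to 5.63) against 2.84-fold in WT (2.28 to 3.53). The intervals overlap. Of the genes listed in both tables, Lyz2 and Pkd1, the polycystin-1 gene, were called in KO stroma and Oat, ornithine aminotransferase, in KO epithelium without a call in WT. A further 60 genes called in KO were not in the WT table, among them Wnt7a, Slc14a1, Krt7 and Erbb2 in epithelium and Meg3, Ccl21a and Dkk3 in stroma. They are not analysed in WT here.

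**Figure D4:**
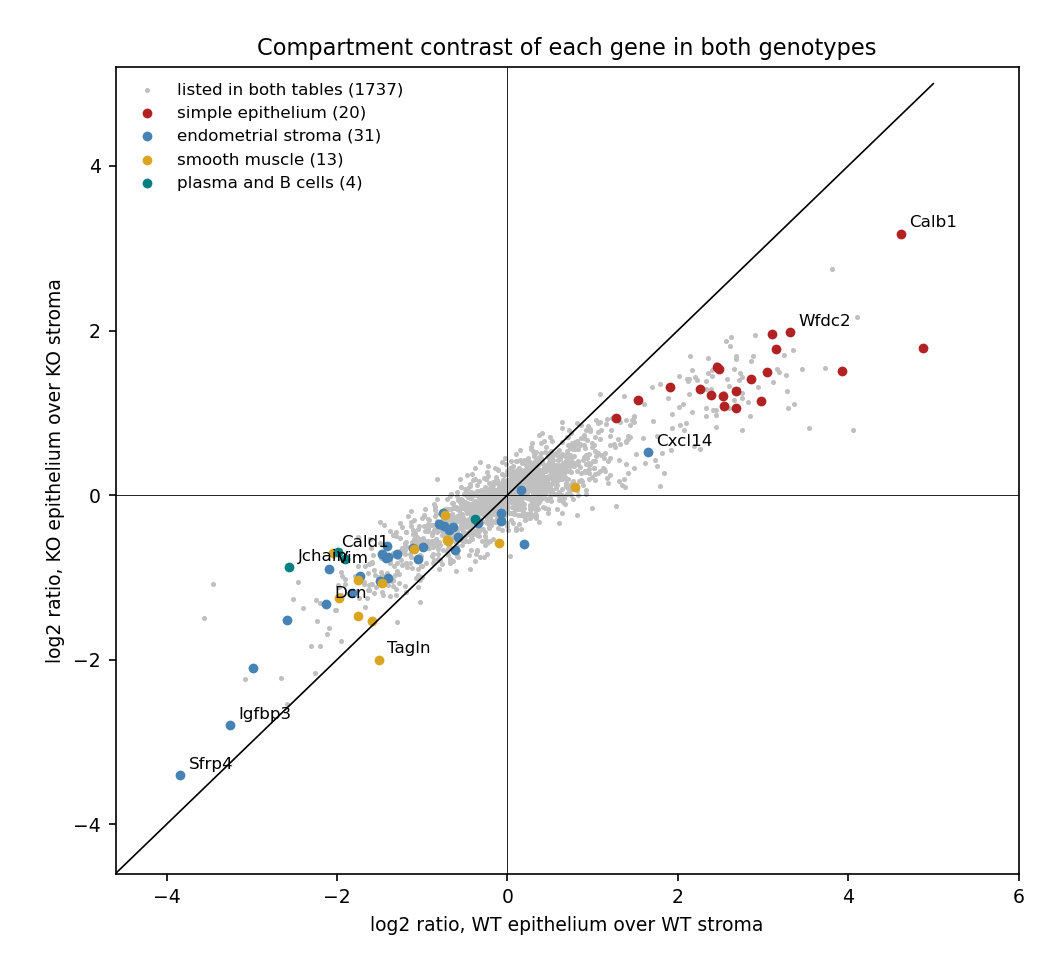
Log2 ratio of epithelium over stroma in WT (horizontal) and KO (vertical) for the 1737 genes in both tables, with 4 marker lists coloured and equal contrasts on the diagonal. Most points far from 0 lie between the diagonal and the horizontal axis (Tagln is an exception), with medians of 1.36 in KO and 2.68 in WT for 20 simple epithelium genes. The listing rule bears on both medians, and their difference was not tested.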

How the data were processed

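Visium libraries were made from 4 KO and 4 WT uteri. Per the file headers, each deposited table holds for both compartments a pooled average in molecules per size factor unit, a log2 fold change against the other compartment and an adjusted p-value. The deposited averages are the authors' pools over animals. GRCm38 is named in the submitters' processing notes. The aligner, the naming of spots and the test were not given in the sources used here. Whether the authors' p-values rest on animals or on single spots is thus unknown. If genes guided the naming of spots, they are no finding.

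A least-squares fit to the deposited averages and log2 values gave the size factor sums. Multiplied by them, 100% of averages came within 0.01 of whole molecules. The steps were tested on a simulated table of 2744 genes. Its intervals held the true fold in 95.6% of even genes, in 96% of those set at 2-fold and in 96% of those set at 4-fold. No p-value was computed.

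The members, gene lists and pairs were chosen with earlier results of these data known. The naming rule took the 15 largest folds per direction among called genes of median level or more, the 10 highest levels per direction and up to 6 members per list and direction. It added Pgr, Esr1, pairs with both partners listed, up to 6 genes per direction called in 1 genotype alone, 6 even genes, and the 6 simple epithelium, stroma and smooth muscle genes with the largest difference between genotypes. Uncalled list members outside that rule, and genes beyond the first 6 of a list, were chosen after their values were seen. Alternatives were thresholds of 0.01 and of an absolute log2 ratio of 1, leaving out the lowest 25% of genes, other scalings and members above 1 in both compartments. GENCODE release M21 held all 2744 gene IDs, and promoters of 2180 listed genes in RefSeq's table for GRCm38.p6. Python 3.11.15, NumPy 2.4.6, SciPy 1.17.1, pandas 2.3.3 and matplotlib 3.10.9 were used. Some results are not reported here.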

Additional observations from a re-analysis of the deposited data

Results flagged for a closer look

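For 6 of the 1737 genes in both tables the counting intervals, which cover counting error only, lay on opposite sides of 1 in KO and WT. None was called in either genotype, and the difference between genotypes was not tested. Cyb5a, cytochrome b5, had a log2 ratio of epithelium over stroma of 0.40 in KO (346 and 192 UMIs) and -0.32 in WT. Ndufc1, a complex I subunit, had 0.32 in KO (367 and 214 UMIs) and -0.39 in WT. Cgnl1, a junction-associated protein related to cingulin, had -0.34 in KO (236 and 218 UMIs) and 0.60 in WT, and Gstm1, a glutathione transferase, had -0.25 in KO and 0.34 in WT. The translation genes Rack1 and Rps14 had -0.11 and -0.10 in KO, and 0.11 and 0.09 in WT. All 6 ratios are small. Another 3 genes, called in WT, had the opposite sign in KO without a call there. In KO, Slc1a5 and Emc6 stood toward stroma and Bst2 toward epithelium, and their KO intervals held 1.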

How the results depend on the processing

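With calls made at 0.01 on the authors' deposited adjusted p, 175 genes were called, and 65 of them in stroma (122 at 0.05). With the lowest 25% by level left out, a step that itself removes called genes, 97 were called in epithelium (149 with them) and 134 in both genotypes (208 with them). Other counts stayed within 1.5 times. Of 132 named and called genes, 40 lost the call at 0.01 and 30 at an absolute log2 ratio of 1, and none of 173 named genes changed sign under the other scalings. With members above an average of 1 in both compartments alone, the list medians turned for Notch genes (-0.21 to 0.15), Polycomb genes (-0.20 to 0.10) and secretory machinery (0.014 to -0.010). They also moved, with no change of sign, for junction genes (0.88 to 0.35), defence proteins (1.20 to 0.60), basal markers (0.84 to 0.26), ion transport (1.02 to 0.91), interferon-induced genes (0.10 to 0.26), TGF-beta genes (-0.31 to -0.14) and imprinted genes (-0.83 to -0.41). Scaling by total UMIs moved the median gene by 0.02 or less. No paired analysis was possible because values per animal are not in these pools, and leaving out each replicate and the litter as a block were not run for the same reason. Depth limits low genes, with a median of 136 UMIs per gene in stroma.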

Other observations

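Called genes that lie near each other on chromosomes were looked at after the values were seen. Among 1533 pairs of listed genes within 100 kb, 19 pairs had both genes called. The 9.88% called over all listed genes is a share of single genes and is no baseline for pairs. No expected count of pairs was computed, so these counts are description only. Of the 19 pairs, 16 were both higher in epithelium, 0 both higher in stroma and 3 opposite. The epithelial pairs included Erbb2 with Grb7, an adaptor of receptor kinases, Krt8 with Krt18, Mt1 with Mt2, Ifitm1 with Ifitm3, Il17rb with Chdh, a choline dehydrogenase, and Dcxr with Cbr2, both carbonyl reductases. On chromosome 2, Dbndd2 lay within 100 kb of both Sdc4 and Wfdc2, with the uncalled Pigt between Dbndd2 and Wfdc2. The opposite pairs were Fxyd1 with Fxyd3, Fxyd1 with Lsr, the angulin of tricellular junctions, and Fbln2 with Wnt7a.

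Some families divided by member, again looked at after the values were seen. Of 6 listed Klf genes, Klf9, Klf2 and Klf15 were called higher in stroma at 2.64-fold, 2.63-fold and 2.37-fold, and Klf5 in epithelium at 2.82-fold. Klf13 and Klf4 stood at 1.38-fold and 1.31-fold toward stroma without a call. Of 5 listed Fxyd genes, Fxyd3 and Fxyd4 were called in epithelium and Fxyd1 in stroma at 1.81-fold. Both listed Timp genes, inhibitors of matrix metalloproteinases, were called in stroma, Timp3 at 2.28-fold and Timp2 at 1.71-fold. Both listed interleukin 17 receptor genes were called in epithelium, Il17rb at 2.63-fold (169 and 47 UMIs) and Il17re at 2.04-fold.

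Lists of genes that vary with cell state or time of day had 0 or 1 call each, counts too small to set apart from the 9.88% called over all listed genes. The 4 listed clock genes had log2 ratios between -0.83 and -0.53 and no call, with Nr1d1 at 91 UMIs in epithelium and 118 in stroma. Of 10 listed immediate-early genes, Klf2 alone was called, and Egr1, an early response factor, stood at 0.74 without a call. Of 9 listed cell cycle genes, Cdkn1c alone was called. Of 8 listed hedgehog and progesterone mediators, Nr2f2 alone was called, and the hedgehog target Gli1 stood at -0.83 (141 and 183 UMIs). None of 10 retinoid and thyroid hormone genes was called. Among the proteasome genes, Psmd3 was called in epithelium and 26 members were not called.

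Genes with a fold above 2 but no call included Serpina1e, an antitrypsin relative, at 4.46-fold toward epithelium (165 and 27 UMIs). Lratd1 and Hdc, histidine decarboxylase, were called at 7.25-fold (149 and 15 UMIs) and 4.48-fold (141 and 23 UMIs).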
